A study of Mus musculus with 58 samples.

Results

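Complement components and receptors were followed through 3 muscles of tumour-bearing and tumour-free mice, with and without whole-body-vibration training (WBV). The set lists 8 genes, C1qa, C1qb, C1qc, C3, C3ar1, C5ar1, Cfb and Serping1, and a gene was measured where a probe set of the array carried its symbol and no other. By this rule 7 of the 8 were measured, each by 1 probe set, among 18820 genes in all; C3 was not analysed here. The arrays came from m. extensor digitorum longus (EDL), m. soleus (SOL) and heart (HRT) of 23 male CD2F1 mice (BALB/c x DBA/2). The mice were 6 to 8 weeks old when divided into groups, before acclimatisation. Tumour-bearing mice with training (T+WBV) and without it (T) had received murine C26 colon adenocarcinoma cells under the skin of the flank. Control mice with training (C+WBV) and without it (C) had received Hank's balanced salt solution. Training was given for 15 min per day from day 1 at 45 Hz and 1.0 g acceleration, and tissues were taken on day 19, at least 24 h after the last session. EDL and SOL were each hybridised from 5 T+WBV, 6 T, 6 C+WBV and 6 C mice, and hearts from 3 mice of each group. The model is a single tumour line in a single hybrid strain, and every mouse was individually housed. EDL, SOL and heart of a mouse share that mouse, so the 58 arrays are not 58 animals.

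Complement is a cascade of plasma and tissue proteins that tags particles, draws in leukocytes and can lyse membranes. C1q, built from the chains encoded by C1qa, C1qb and C1qc, binds antibody complexes and cell debris and starts the classical route, and in mouse tissues its transcripts come mainly from macrophages. Factor B, encoded by Cfb, supplies the protease of the alternative route. C1 inhibitor, encoded by Serping1, blocks the proteases that C1q carries. C3ar1 and C5ar1 encode the receptors of the anaphylatoxins C3a and C5a on myeloid cells. In bulk muscle RNA, more cells of a type and more RNA per cell cannot be told apart.

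All values are log2 intensities after robust multi-array averaging (RMA), in which 1 unit is a doubling. A difference was called where the Benjamini-Hochberg adjusted p of limma, taken over all 18820 genes of a comparison, lay below 0.01. Levels of a gene are set side by side between groups and muscles, and not between genes, because probe sets differ in their response. The array medians ran from 4.52 to 4.60, and no array repeated another. The 10 fast fibre markers summed to 62480 to 67170 linear units in EDL of C mice, against 30820 to 33690 in SOL and 334.7 to 477.8 in heart. The 9 slow fibre markers summed to 41970 to 44830 in SOL of C mice, against 6076 to 8083 in EDL, and the 10 measured heart markers to 40310 to 43020 in heart, against 621.8 to 798.1 in SOL and 992.4 to 1775 in EDL. Thus the muscles carried the transcripts that their labels call for.

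**Figure D1:**
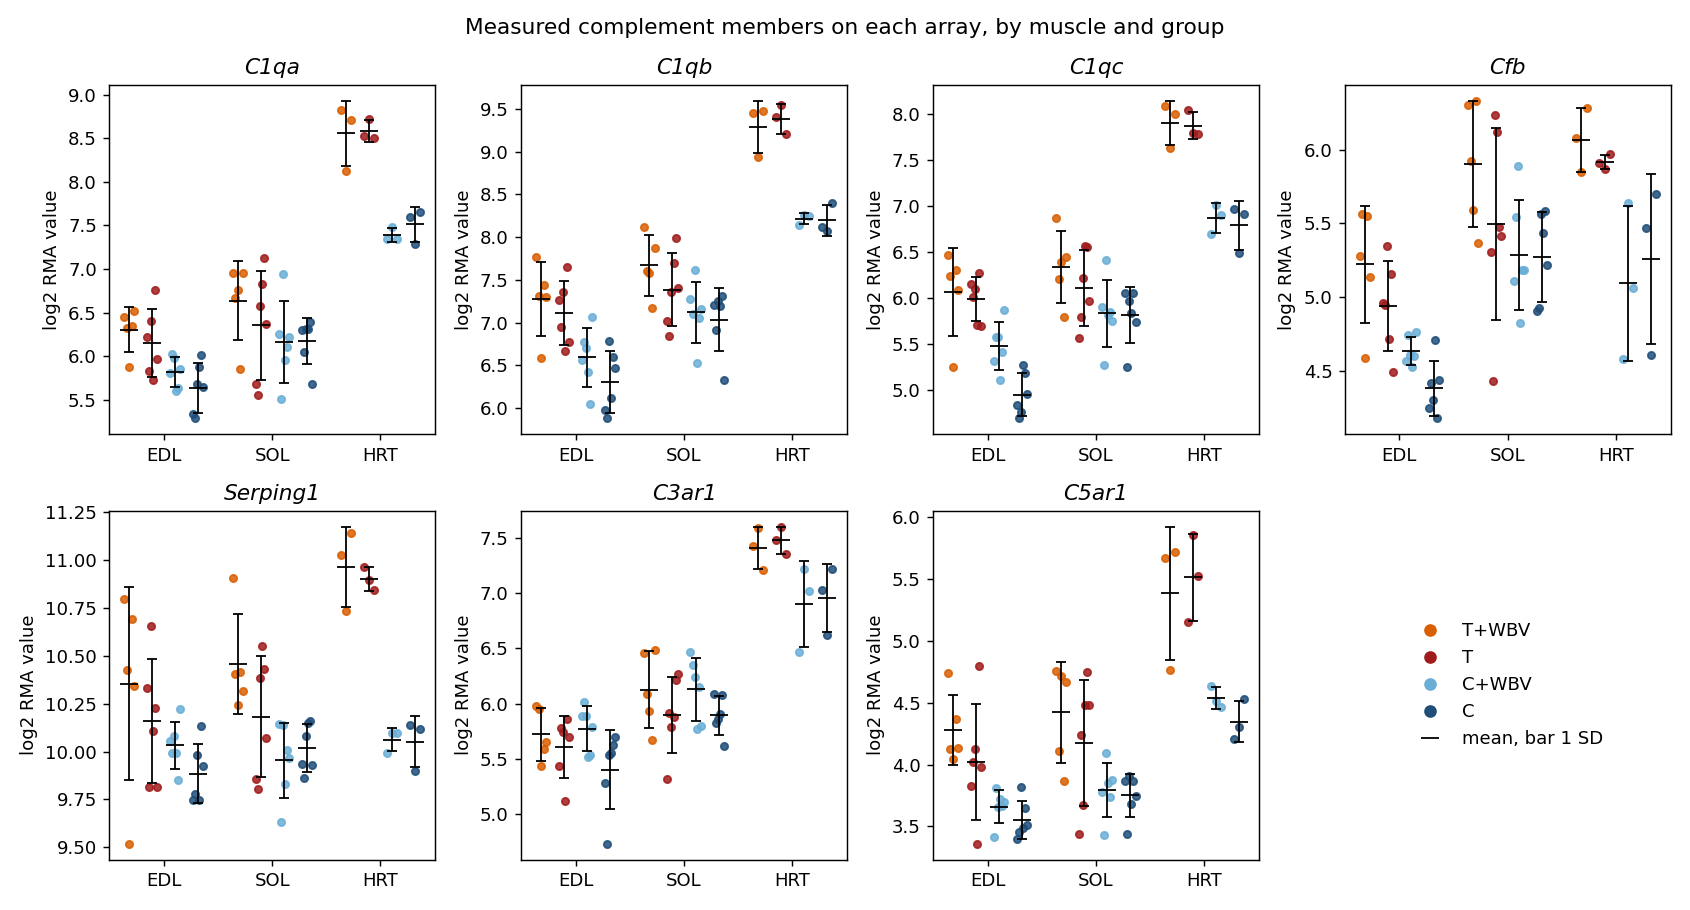
Log2 RMA values of the 7 measured genes (vertical axis, 1 panel per gene) on each of the 58 arrays, grouped along the horizontal axis by muscle and within a muscle as T+WBV, T, C+WBV and C; points are arrays, the horizontal marks are means and the bars 1 SD. In heart the tumour-bearing mice lie above the controls for every C1q chain and for Serping1, at 10.73 to 11.14 in T+WBV against 9.99 to 10.10 in C+WBV for Serping1, whereas in SOL the T and C points overlap for all 7 genes.

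In C mice, the C1q chains and C3ar1 were highest in heart. C1qb measured 8.07, 8.12 and 8.40 in the 3 hearts, against a lowest, median and highest value of 6.33, 7.20 and 7.31 in SOL and of 5.88, 6.29 and 6.79 in EDL. Every heart lay above every skeletal muscle, while SOL and EDL overlapped. C1qc measured 6.49, 6.92 and 6.97 in the hearts, against 5.25, 5.90 and 6.06 as the lowest, median and highest of SOL and 4.70, 4.90 and 5.27 of EDL, so that here SOL and EDL touched only at their edges. C1qa measured 7.29, 7.60 and 7.66 in the hearts, 5.69 to 6.39 in SOL and 5.29 to 6.01 in EDL.

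The differences between muscles of C mice were estimated with all 58 arrays in a single fit that kept the mouse as a random block. Between heart and EDL, 6 of the 7 genes were higher in heart, a direction in which 19% of all genes were called. The 3 C1q chains differed by nearly the same amount, 1.86 ± 0.23 (SE) for C1qa, 1.86 ± 0.22 for C1qb and 1.85 ± 0.21 for C1qc on the log2 scale, or 3.62- to 3.63-fold. C3ar1 followed at 1.56 ± 0.18, Cfb at 0.88 ± 0.25 and C5ar1 at 0.78 ± 0.21. Serping1 did not pass, with a difference of 0.16 (95% interval -0.16 to 0.47).

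Between heart and SOL, 4 of the 7 genes were higher in heart, where 15.4% of all genes were. These were the C1q chains and C3ar1, at 1.33 ± 0.23 for C1qa, 1.13 ± 0.22 for C1qb, 0.99 ± 0.21 for C1qc and 1.07 ± 0.18 for C3ar1. Between SOL and EDL, 3 of the 7 were higher in SOL, where 7.49% of all genes were, namely Cfb at 0.89 ± 0.20, C1qc at 0.87 ± 0.17 and C1qb at 0.73 ± 0.18. C3ar1 lay at the threshold, at 0.49 ± 0.15 and an adjusted p of 0.01. The order of the levels was therefore heart, SOL and EDL for the C1q chains, with C1qa in SOL and EDL not separated by the test (adjusted p = 0.0328). For Cfb, heart and SOL differed by -0.02 (95% interval -0.51 to 0.48), and both lay above EDL. For Serping1 no pair of muscles was separated. Some of these calls rested on single mice: that of C1qb between SOL and EDL was lost without C replicate 1, 2 or 4, that of Cfb between heart and EDL without C replicate 2 or 5, that of C5ar1 between heart and EDL without C replicate 5, and that of C1qc between heart and SOL without C replicate 2, at adjusted p of at most 0.0179, 0.0959, 0.0222 and 0.0137.

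**Figure D2:**
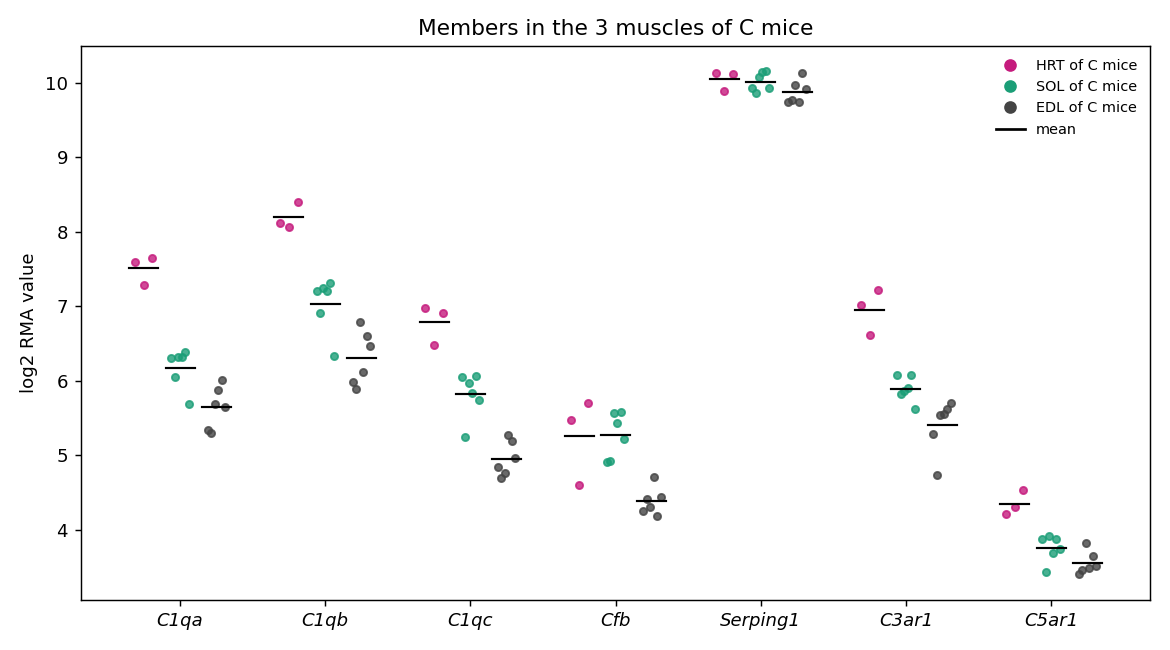
Log2 RMA values (vertical axis) of the 7 measured genes (horizontal axis) in heart, SOL and EDL of C mice; points are arrays (3 hearts, 6 SOL, 6 EDL) and lines are means. The C1q chains and C3ar1 step down between heart, SOL and EDL, while Serping1 has means of 10.05, 10.02 and 9.88.

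In EDL, C1qc and C1qb had the largest tumour differences of the members. C1qc had a lowest, median and highest value of 5.70, 6.05 and 6.27 in T mice, against 4.70, 4.90 and 5.27 in C mice. The 6 T muscles all lay above the 6 C muscles, and C1qc rose by 1.04 ± 0.16 (SE), a 2.05-fold difference (adjusted p = 3.53e-05). C1qb had 6.67, 7.11 and 7.66 in T mice as the lowest, median and highest, against 5.88, 6.29 and 6.79 in C mice. The groups overlapped slightly, and C1qb rose by 0.81 ± 0.20 (adjusted p = 0.00242). C1qa differed in the same direction by 0.51 ± 0.15 without passing (adjusted p = 0.0123), and it passed without C replicate 5, T replicate 2 or T replicate 4. Together with Cfb, 3 of the 7 members were called higher in T in EDL, where 10.7% of all genes were called higher, and none was lower.

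C1qb and C1qc, whose differences passed in EDL, lie with C1qa on chromosome 4, and the 250 bases before the start of each are shown because these genes moved together in EDL and heart. They come from RefSeq on GRCm38.p6, written 5′ to 3′ on the strand of the gene. Entries were matched for 4 of the 7 measured genes. Capitals mark matches to GAGGAA, the core letters bound by the myeloid factor PU.1, or to its reverse complement.
C1qb, chr4:136886201-136886450, minus strand: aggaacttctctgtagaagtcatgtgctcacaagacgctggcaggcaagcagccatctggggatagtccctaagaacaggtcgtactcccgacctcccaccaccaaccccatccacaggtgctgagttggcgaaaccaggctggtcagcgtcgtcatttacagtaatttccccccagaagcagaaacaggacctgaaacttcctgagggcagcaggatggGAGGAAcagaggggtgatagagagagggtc
C1qc, chr4:136892915-136893164, minus strand: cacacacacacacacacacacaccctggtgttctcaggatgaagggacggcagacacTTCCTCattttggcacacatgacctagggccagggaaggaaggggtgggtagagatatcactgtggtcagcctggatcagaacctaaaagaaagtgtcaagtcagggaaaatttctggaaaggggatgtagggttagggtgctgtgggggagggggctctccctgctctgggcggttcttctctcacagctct
C1qb holds the match on the strand of the gene from -30 to -25, and C1qc holds it on the opposite strand from -193 to -188, counted from the start. The windows of C3ar1 and C5ar1 hold none. Searched on both strands, GAGGAA occurred in 23.3% of 32851 promoter windows of the same length. TTGCNNAA, a C/EBP motif, and TTCNNNGAA, a STAT motif, were searched likewise and occurred in 9.56% and 7.02% of the windows, and in none of the 4 matched genes. These letters describe the windows only.

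In heart, all 3 chains rose with the tumour and did so by about the same amount. C1qa measured 8.51, 8.52 and 8.72 in T hearts, against 7.29, 7.60 and 7.66 in C hearts. C1qb measured 9.20, 9.40 and 9.55 in T hearts, against 8.07, 8.12 and 8.40 in C hearts, and C1qc 7.78, 7.80 and 8.05 against 6.49, 6.92 and 6.97. Each T heart lay above each C heart for each chain, with about 1 log2 unit between the groups. The differences were 1.07 ± 0.15 for C1qa (adjusted p = 0.00067), 1.19 ± 0.13 for C1qb (adjusted p = 0.000274) and 1.08 ± 0.14 for C1qc (adjusted p = 0.000522), or 2.10-, 2.28- and 2.12-fold. Leaving out any single heart kept these 3 calls. In the fit of all 58 arrays C1qa lost its call, while C1qb and C1qc kept theirs.

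In SOL no chain passed. C1qa had 5.55, 6.47 and 7.12 as the lowest, median and highest of T, against 5.69, 6.31 and 6.39 of C, so that T replicates 1 and 2 lay below the lowest control. C1qb had 6.85, 7.38 and 8.00 in T, against 6.33, 7.20 and 7.31 in C. The differences of the 3 chains were 0.18 (95% interval -0.33 to 0.69), 0.35 (-0.06 to 0.76) and 0.29 (-0.11 to 0.70). In SOL 0 of the 7 members were called, where 5.06% of all genes were called higher in T. An unadjusted p below 0.05 was found for 1 member, and for 6083 of the 18820 genes in either direction.

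Factor B followed the C1q chains in EDL but with more spread elsewhere. In EDL, Cfb had 4.49, 4.95 and 5.35 as the lowest, median and highest of T, against 4.18, 4.36 and 4.70 of C, and it rose by 0.56 ± 0.15 (adjusted p = 0.00412). The call was lost, at an adjusted p of at most 0.0128, without C replicate 1, C replicate 5, T replicate 3 or T replicate 5, and in the fit of all 58 arrays with the mouse as a random block (adjusted p = 0.0382). In heart, Cfb measured 5.87, 5.91 and 5.97 in T, against 4.60, 5.47 and 5.70 in C. The T hearts lay close together above the scattered C hearts, and the difference of 0.66 ± 0.27 did not pass (adjusted p = 0.123). In SOL the T muscles ran from 4.43 to 6.24 around a median of 5.44, and the C muscles from 4.91 to 5.58 around 5.33, so that the controls lay wholly within the range of T.

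Serping1 changed with the tumour in heart. It measured 10.84, 10.90 and 10.96 in T hearts, against 9.90, 10.12 and 10.14 in C hearts. The spread within a group was small against the gap between them, and Serping1 rose by 0.85 ± 0.09, or 1.80-fold (adjusted p = 0.000249), with each heart left out in turn as well. In EDL the T muscles had 9.81, 10.17 and 10.66 as the lowest, median and highest, against 9.75, 9.85 and 10.13 in C, a difference of 0.27 ± 0.16 (adjusted p = 0.214). In SOL T had 9.80, 10.23 and 10.55, against 9.86, 10.01 and 10.16 in C, a difference of 0.16 ± 0.13 (adjusted p = 0.42).

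Of the anaphylatoxin receptors, C5ar1 passed in heart and C3ar1 in no muscle, and the difference between them was not tested. C5ar1 measured 5.15, 5.53 and 5.86 in T hearts, against 4.21, 4.30 and 4.53 in C hearts, and rose by 1.17 ± 0.23, or 2.25-fold (adjusted p = 0.00443). The T hearts were all above the C hearts, but the call was lost, at an adjusted p of at most 0.0276, when 5 of the 6 hearts were left out one at a time. In EDL, C5ar1 had 3.36, 4.00 and 4.80 as the lowest, median and highest of T, against 3.40, 3.50 and 3.82 of C, a difference of 0.47 ± 0.16 that did not pass (adjusted p = 0.0253). T replicate 4 held the lowest value of all 12 muscles and T replicate 5 the highest. C5ar1 also had the smallest adjusted p of the members in SOL, at 0.43 ± 0.19 (adjusted p = 0.118).

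C3ar1 was the member nearest to no difference in the skeletal muscles. In SOL it had 5.32, 5.89 and 6.26 as the lowest, median and highest of T, against 5.62, 5.88 and 6.08 of C, a difference of 0.00054 (95% interval -0.33 to 0.33). In EDL it had 5.12, 5.72 and 5.86 in T, against 4.73, 5.54 and 5.70 in C, a difference of 0.20 ± 0.15. In heart it measured 7.35, 7.48 and 7.60 in T, against 6.62, 7.02 and 7.22 in C, with no overlap and a difference of 0.52 ± 0.18 that did not pass (adjusted p = 0.0713). In heart, 5 of the 7 members were thus called higher in T, namely the C1q chains, C5ar1 and Serping1, where 2.7% of all genes were called higher.

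**Figure D3:**
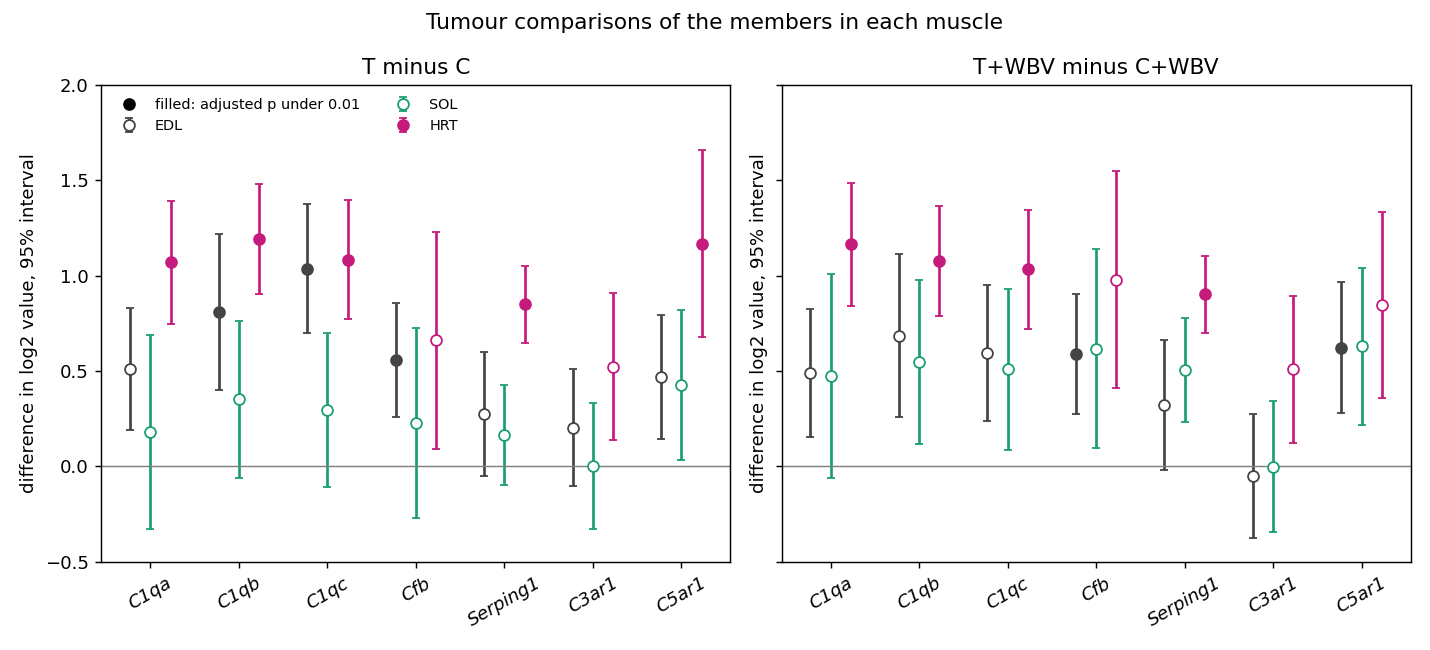
Differences in log2 value (vertical axis) with their 95% intervals for the 7 measured genes (horizontal axis) in EDL, SOL and heart, for T minus C (left) and T+WBV minus C+WBV (right); filled points passed an adjusted p of 0.01. The heart points of the C1q chains sit between 1.03 and 1.19 in both panels, and no SOL point is filled.

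The means compared between the trained groups came from other mice than those of T and C. Both comparisons took their spread from the same fit of the 4 groups of a muscle, so their p-values were not independent. In heart, 4 of the 7 members were called higher in T+WBV than in C+WBV, where 1.01% of all genes were. C1qa measured 8.13, 8.71 and 8.83 in T+WBV hearts, against 7.35, 7.35 and 7.48 in C+WBV hearts, and rose by 1.16 ± 0.15 (adjusted p = 0.00086). C1qb rose by 1.08 ± 0.13 and C1qc by 1.03 ± 0.14, and Serping1, at 10.73, 11.02 and 11.14 in T+WBV against 9.99, 10.10 and 10.10 in C+WBV, by 0.90 ± 0.09 (adjusted p = 0.000185). None of these groups overlapped. C5ar1, at 0.85 ± 0.23, and Cfb, at 0.98 ± 0.27, did not overlap either but did not pass (adjusted p = 0.042 and 0.0432). The C1qc call was lost without T+WBV replicate 1 or C+WBV replicate 1. The fit of all 58 arrays lost the C1qb call (adjusted p = 0.0125), and the fit of only these groups lost those of C1qa and C1qc (adjusted p = 0.0125 and 0.0101). Serping1 kept its call in all 14 settings tried.

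In EDL, C5ar1 and Cfb were called higher in T+WBV, 2 of the 7 members where 5.27% of all genes were called higher. Both were dim in EDL, where in C mice C5ar1 lay at percentile 28.9 of all genes and Cfb at 42.3. C5ar1 measured 4.05, 4.12, 4.13, 4.37 and 4.74 in T+WBV, against 3.42, 3.68 and 3.81 as the lowest, median and highest of C+WBV. The groups did not overlap, and the difference was 0.62 ± 0.17 (adjusted p = 0.00877). Cfb measured 4.58, 5.13, 5.28, 5.55 and 5.56 in T+WBV, against 4.53, 4.60 and 4.76 in C+WBV, a difference of 0.59 ± 0.15 (adjusted p = 0.00702). T+WBV replicate 3 was the one T+WBV muscle within the C+WBV range for Cfb. Both calls were lost when each of 9 of the 11 mice was left out in turn, at an adjusted p of at most 0.0388. Both were also lost in the fit of all 58 arrays with the mouse as a random block (adjusted p = 0.0109 for C5ar1 and 0.0483 for Cfb).

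The same mouse, T+WBV replicate 3, had the lowest EDL value of its group for all 7 members. C1qc measured 5.25, 6.09, 6.24, 6.30 and 6.47 in T+WBV, against 5.11, 5.50 and 5.87 as the lowest, median and highest of C+WBV. Replicate 3 gave the 5.25, and the other 4 muscles lay above all C+WBV muscles. The C1q chains differed by 0.49 ± 0.16, 0.68 ± 0.21 and 0.59 ± 0.17 for C1qa, C1qb and C1qc without passing (adjusted p = 0.0321, 0.0195 and 0.0155). Without replicate 3, C1qb differed by 0.86 and C1qc by 0.80, and both passed. The share of all genes called in that fit is not given here. This mouse had the lowest body mass at day 19 of the 11 tumour-bearing mice, at 75.9% of its starting mass. Its EDL had the highest sum of neutrophil markers among the 11, 4253 linear units, and the lowest sum of fibroblast markers, 2765. Its sum of macrophage markers, 750.6, was the lowest of the T+WBV muscles, against 983.4 to 1198 in the other 4. The part of any of these in the members' values was not tested.

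In SOL 0 of the 7 members were called between T+WBV and C+WBV by limma, where 1.94% of all genes were called higher. An unadjusted p below 0.05 was found for 5 members, and for 4232 of the 18820 genes in either direction. Serping1 measured 10.24, 10.32, 10.41, 10.41 and 10.91 in T+WBV, against 9.63, 9.99 and 10.14 as the lowest, median and highest of C+WBV. The groups did not overlap, and the difference was 0.50 ± 0.13 (adjusted p = 0.0172). It was called only among genes above the median level. C5ar1 differed by 0.63 ± 0.20 (adjusted p = 0.046). C3ar1 had differences of -0.05 in EDL and -0.0028 in SOL.

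T+WBV against C, which shares the C arrays with T against C, had 5 members called higher in EDL (C1qa, C1qb, C1qc, C5ar1 and Cfb), where 5.37% of all genes were, 0 in SOL, where 2.01% were, and 4 in heart (the C1q chains and Serping1), where 0.999% were. In EDL, C1qc differed by 1.12 ± 0.17 and Cfb by 0.84 ± 0.15, and in heart Serping1 differed by 0.91 ± 0.09. In SOL, 5 members had an unadjusted p below 0.05, as did 4649 of the 18820 genes in either direction. The smallest adjusted p of the members there was 0.0291, for C5ar1.

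When the tumour difference was averaged over trained and untrained mice, a comparison chosen after the data had been seen, more members passed. In heart all 7 were called higher, where 5.46% of all genes were, and C3ar1 was the closest to the threshold at 0.52 ± 0.13 (adjusted p = 0.00998). In EDL 5 were called, where 14.1% of all genes were, with C1qc at 0.81 ± 0.12 and C3ar1 at 0.08 ± 0.11. In SOL 2 were called, where 8.17% of all genes were, namely C5ar1 at 0.53 ± 0.14 (adjusted p = 0.0047) and Serping1 at 0.33 ± 0.09 (adjusted p = 0.00719). C3ar1 in SOL stood at -0.0011 (95% interval -0.24 to 0.24).

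Training itself moved no member past the test. Between T+WBV and T, 0 of the 7 members and 0% of all genes were called by limma in each of the 3 muscles. Only 1 member, Serping1 in SOL, had an unadjusted p below 0.05 (0 in EDL and heart). In SOL 939 of the 18820 genes did. All 7 differences were above 0 in EDL, from 0.08 to 0.29, and in SOL, from 0.23 to 0.41, while 3 of 7 were above 0 in heart. Cfb had the largest of them in EDL and SOL. In SOL it measured 5.37, 5.59, 5.93, 6.30 and 6.33 in T+WBV, against 4.43, 5.44 and 6.24 as the lowest, median and highest of T, and the groups overlapped. Serping1 in SOL differed by 0.28 ± 0.13 (adjusted p = 0.928).

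Between C+WBV and C, again 0 members and 0% of all genes were called in each muscle. In EDL all 7 differences were above 0, and 2 had an unadjusted p below 0.05, as did 627 of the 18820 genes in either direction. C1qc had 5.11, 5.50 and 5.87 as the lowest, median and highest of C+WBV, against 4.70, 4.90 and 5.27 of C. The groups overlapped in part, and the difference of 0.52 ± 0.16 carried an adjusted p of 1. C3ar1 differed by 0.37 ± 0.15, likewise with an adjusted p of 1. The interaction of tumour and training was called for 0 members and for 0% of all genes, and no member had an unadjusted p below 0.05; for C1qc in EDL it was -0.44 (95% interval -0.94 to 0.05). The average training difference over both tumour arms, also chosen after the data had been seen, gave 0 calls and 0% of all genes, with C1qc in EDL at 0.30 ± 0.12 and Cfb at 0.27 ± 0.11.

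Whether the tumour difference itself varied between muscles was tested in the fit of all 58 arrays. No member was called, with 2.02% of all genes called for SOL minus EDL, 3.5% for HRT minus EDL and 1.68% for HRT minus SOL. For SOL minus EDL all 7 differences were below 0, and C1qc came closest at -0.74 ± 0.24 (adjusted p = 0.0531). For HRT minus SOL all 7 were above 0, from 0.43 for Cfb to 0.85 for C1qa. Of the 7, 5 had an unadjusted p below 0.05, as did 3020 of the 18820 genes in either direction. Serping1 had the smallest adjusted p of these, at 0.69 ± 0.22 (adjusted p = 0.0683). A call in heart and none in SOL is therefore not a shown difference between the muscles. For HRT minus EDL, C1qc stood at 0.01 (95% interval -0.58 to 0.61), and C5ar1 at 0.66 ± 0.29.

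Markers of other cell types moved with the tumour as well. The 16 macrophage markers, none of them a member, summed to 682.4 to 1448 linear units in EDL of T, against 530.2 to 786.7 in C, with 5 of 16 called higher. In heart they summed to 3666 to 4037 in T, against 1881 to 3209 in C, with 8 of 16 called higher, and in SOL to 939.1 to 1513 in T, against 871.1 to 1149 in C, with 0 higher and 1 lower. In T+WBV against C+WBV, 1 of 16 was higher in EDL, 2 in SOL and 6 in heart, and none was lower. Over all genes 5.27%, 1.94% and 1.01% were called higher in that comparison, so the count in EDL lay near the share. The 14 measured neutrophil markers summed to 644.1 to 3773 in EDL of T, against 153.6 to 251.7 in C, to 431.6 to 1606 in SOL, against 164.7 to 182.8, and to 1856 to 2307 in heart, against 180.3 to 249. They were called higher in 6, 8 and 6 of 14 genes. Of the 12 measured fibroblast markers, 7 were lower in EDL and 9 in SOL with none higher there, while heart had 4 higher and 2 lower. The part of these cell types in the members' values was not tested.

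In T against C, adipocyte markers (10 genes) had 1 higher in EDL, 1 higher in SOL and 1 lower in heart. In lists this short, a count of 1 cannot be told from the shares over all genes given above. Of 12 endothelial markers, EDL had 3 higher and 1 lower, SOL had 1 of each, and heart had 1 higher and 2 lower. The 10 measured lymphocyte markers had 0 calls in each muscle. Fast fibre markers had 6 of 10 lower in EDL, 3 lower in SOL and 0 called in heart. Of 9 slow fibre markers, EDL had 1 higher, SOL had no call and heart had 1 higher with 1 lower, and 1 of the heart markers was lower in each muscle, with 1 more higher in SOL. Of the 11 measured hepatocyte markers 1 was called, Ahsg, the gene of fetuin-A, higher by 2.34 in heart and named after its value was seen. The hepatocyte markers summed to 570.5 to 673.7 there in T, against 192 to 378.6 in C. In trained hearts the sums overlapped, at 304.9 to 731.5 in T+WBV against 170.8 to 617.9 in C+WBV.

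Within the tumour-bearing mice, no slope on body mass passed the test in EDL or SOL. Most members had slopes of opposite sign in EDL and heart, but for the C1q chains and C5ar1 the heart sign rested on a single mouse. The slope was fitted with a term for training and is given per 10 percentage points of body mass at day 19. In EDL all 7 slopes were above 0 and 0 were called, where 1.17% of all genes were called in either direction. Cfb had 0.36 (adjusted p = 0.0749), Serping1 0.34 and C1qc 0.28. In SOL 6 slopes were above 0 and 0 were called, where 0.335% of all genes were, with Cfb at 0.29. Without T+WBV replicate 3, the lightest mouse, the EDL slopes stayed above 0 but fell to 0.25 for Cfb, 0.16 for Serping1 and 0.08 for C1qc. Without T+WBV replicate 2, the heaviest, they were instead larger, at 0.53 for Cfb, 0.75 for Serping1 and 0.51 for C1qc, and in SOL Cfb had 0.69.

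In heart, with 6 tumour-bearing mice, the slopes are given as a description. C5ar1 had -0.46, C1qa -0.30 and Serping1 -0.20, while C3ar1 had 0.21. The signs for the C1q chains and C5ar1 rested on T+WBV replicate 2, the mouse that had kept 100.9% of its mass. Its heart was the lowest of the 6 for the C1q chains, C5ar1, Cfb and Serping1, at 8.13 for C1qa and 4.76 for C5ar1, yet it still lay above every control heart for those genes. Without it the slopes of the C1q chains and C5ar1 turned positive, at 0.31 for C1qa and 0.28 for C5ar1, and that of Serping1 was -0.07. C3ar1 and Cfb kept their signs without it, at 0.43 and -0.28. Its neutrophil marker sum was 503.9 linear units, against 1856 to 2660 in the other 5 tumour-bearing hearts, and its macrophage marker sum was 2962, against 3666 to 4077. The part of these cells in the values was not tested.

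**Figure D4:**
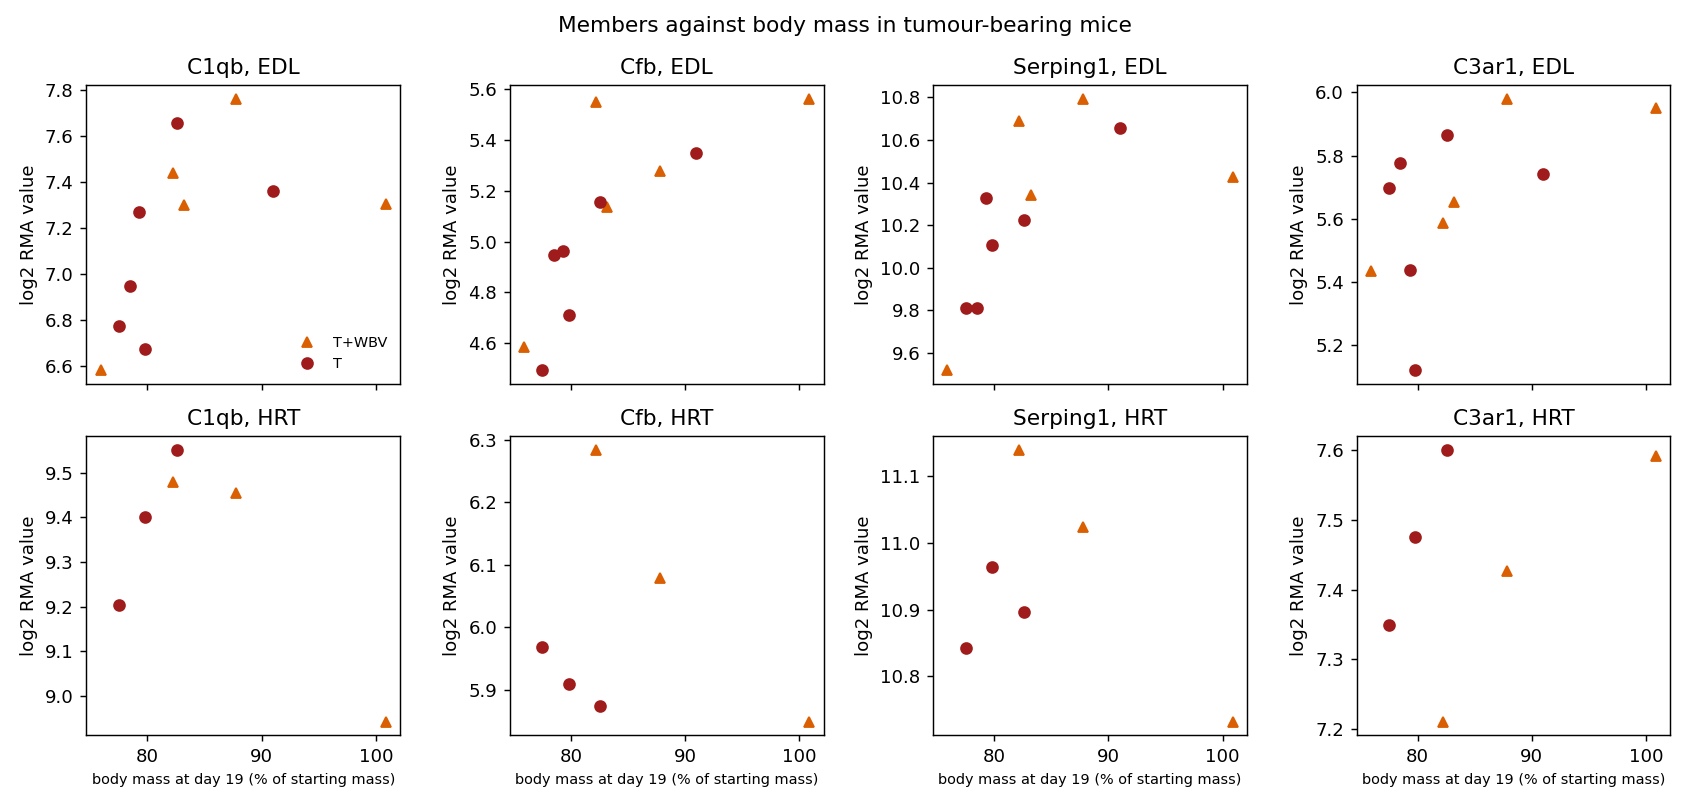
Log2 RMA values (vertical axes) of C1qb, Cfb, Serping1 and C3ar1 against body mass at day 19 (horizontal axis, % of starting mass) in tumour-bearing mice, in EDL (top, 11 mice) and heart (bottom, 6 mice); triangles are T+WBV and circles T. In EDL the lightest mouse, at 75.9%, is the lowest for C1qb and Serping1, while in heart the heaviest, at 100.9%, is the lowest for C1qb, Cfb and Serping1.

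Across the rest of the cascade, 48 of 59 listed genes were measured, 41 of them outside the 7 members. In T against C, EDL had 8 of the 41 called higher and 3 called lower, SOL had 2 of each, and heart had 8 higher and 1 lower. Over all genes, EDL had 10.7% called higher and 11.6% called lower, SOL had 5.06% higher with 8.66% lower, and heart had 2.7% higher with 3.04% lower. The median difference of the 41 in EDL was -0.0049 (all genes -0.0269). It was 0.0265 in SOL (all genes -0.0076) and 0.0745 in heart (all genes 0.0043). By route, 16 measured genes start the classical and lectin routes. Members included, 5 of these were higher in EDL, 0 in SOL and 7 in heart, and none was lower. Besides the C1q chains, Masp1, a protease of the lectin route, rose by 0.59 ± 0.10 in EDL, and Fcna, a ficolin that recognises microbial sugars, by 0.54 ± 0.14 in EDL and 1.51 ± 0.29 in heart. C4a, by 0.53 ± 0.14 in EDL and 1.33 ± 0.25 in heart, belongs to a gene pair of near-identical sequence and is uncertain for that reason. Its mean of 2.53 in EDL of C also lay below the array medians of 4.52 to 4.60. The proteases of the C1 complex, C1ra and C1s1, rose in heart, by 1.06 ± 0.13 and 1.00 ± 0.16, beside the C1q chains and their inhibitor. Both have near-identical copies in the mouse, which makes their values uncertain. C1ra had -0.08 in EDL and -0.31 in SOL. In T+WBV against C+WBV, Masp1 (0.55) and C4a (0.68) passed in EDL, and C1ra (0.83) and C1s1 (1.16) in heart. Fcna did not pass among the trained mice, at 0.26 in EDL and 0.75 in heart, and neither did C4a in heart, at 0.71. Of the C3 and alternative route list, 2 genes were measured, and Cfb in EDL was the only call in either direction.

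Of 11 receptors, 3 were higher in EDL, 1 in SOL and 2 in heart. Vsig4, a receptor of macrophages for C3 fragments, rose in all 3 muscles, by 0.67 ± 0.18 in EDL, 1.19 ± 0.25 in SOL and 1.42 ± 0.22 in heart. Itgam, the alpha chain of complement receptor 3, rose in EDL by 0.86 ± 0.12. Among 13 measured regulators, EDL had 2 higher and 3 lower, SOL had 1 higher and 2 lower, and heart had 3 higher and 1 lower. Vtn, encoding vitronectin, which restrains the terminal complex, fell in all 3 muscles, by 0.51 ± 0.12 in EDL, 0.73 ± 0.13 in SOL and 0.80 ± 0.10 in heart. Cd59b, a membrane inhibitor of the same complex, fell by 1.22 ± 0.20 in EDL and 0.90 ± 0.19 in SOL. Cfi, the protease that inactivates C3b and C4b, rose by 1.50 ± 0.30 in heart. Of 6 measured terminal components, C6 was the one called, with 1.21 ± 0.25 in heart. No terminal component was called in T+WBV against C+WBV in any muscle.

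**Figure D5:**
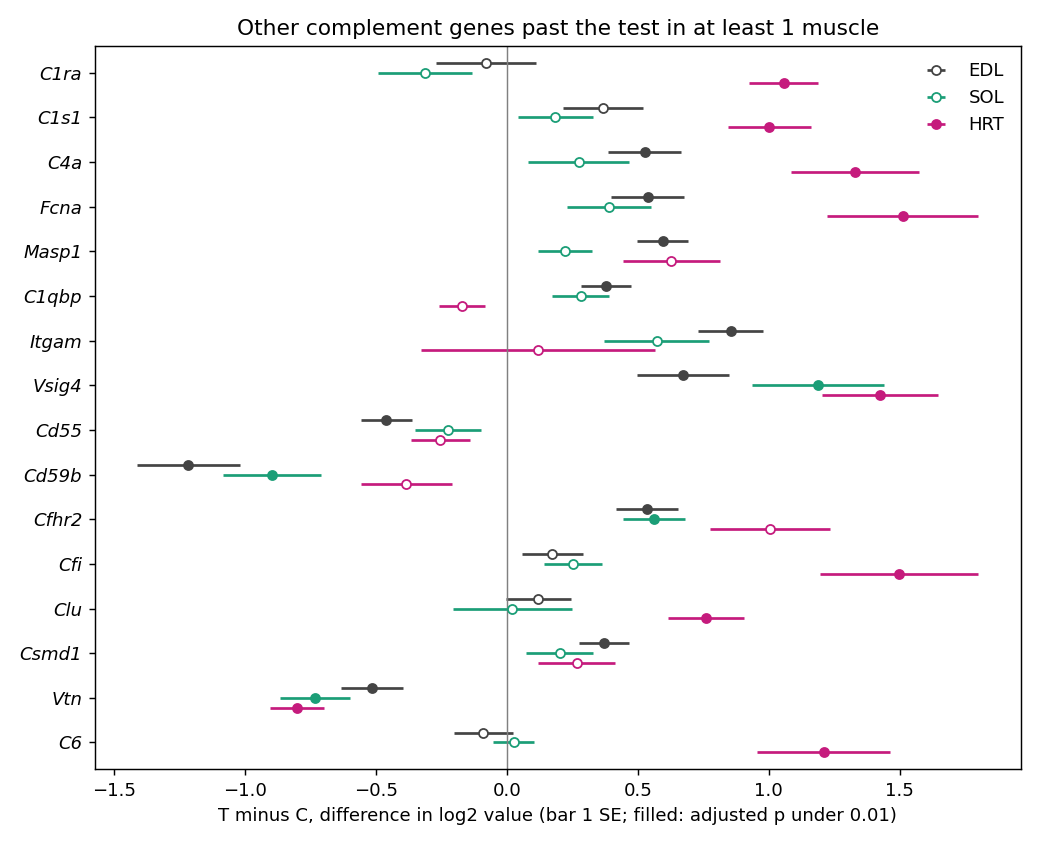
Difference in log2 value of T minus C (horizontal axis, bar 1 SE) in EDL, SOL and heart for the 16 complement genes outside the member set that passed an adjusted p of 0.01 in at least 1 muscle (vertical axis); filled points passed. Vsig4 is filled to the right of 0 and Vtn to the left of 0 in all 3 muscles, whereas C1ra, C1s1, Cfi, Clu and C6 are filled in heart alone.

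Members were also compared by their pattern over the 58 arrays, after each value had been set against the mean of its muscle. These correlations are across arrays that share mice, groups and muscles and are descriptions. Group means were not removed, so the tumour difference is part of every correlation, and members with a small one tend to correlate less. The C1q chains correlated with each other at r = 0.88 to 0.90, and with Serping1 at 0.82 to 0.85 and C5ar1 at 0.80 to 0.83. C3ar1 stood apart, at 0.41 with Cfb and at most 0.63, with C1qb. Outside the set, the gene most like C1qb and C1qc was Fcer1g, an Fc receptor chain of myeloid cells, at 0.92 and 0.86, and the gene most like C1qa was Lyve1, a hyaluronan receptor of lymphatic vessels and resident macrophages, at 0.865.

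Serping1 had C1s1, the protease it inhibits, as its nearest gene at 0.88, then Lrp1 and Mrc1. Cfb had Arpc1b at 0.78, then C1s1 and Pros1, the gene of protein S. C5ar1 had Ms4a6d at 0.85, then the chemokines Ccl9 and Ccl6, and C3ar1 had Pf4, platelet factor 4, at 0.77, then Laptm5 and F13a1. C1qa had F13a1 and Lrp1 after Lyve1, C1qb had Lyve1 and Ms4a6c, and C1qc had Ccl6 and Fbln1. Of these neighbours, Ms4a6d, Ccl9 and Ccl6 rose with the tumour in all 3 muscles. The tumour difference was part of the values that chose the neighbours, so such a rise is partly built into the choice. Ms4a6d rose by 1.15 (EDL), 1.23 (SOL) and 2.34 (heart), Ccl9 by 1.02, 0.85 and 1.85, and Ccl6 by 1.67, 1.26 and 2.21 in the same order. Fcer1g rose in EDL, by 0.69, and in heart, by 0.79, and had 0.06 in SOL.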

How the data were processed

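RNA of the 58 muscles was hybridised to Affymetrix Mouse Gene 1.1 ST arrays. The authors normalised the arrays with robust multi-array averaging and deposited log2 expression values per probe set; the version was not given in the sources used here. Of 35556 probe sets, 21218 carried 1 gene symbol, and they were averaged to 18820 genes. Groups were taken from the sample labels. Differences were fitted per muscle over the 4 groups with limma 3.58.1 in R 4.3.3, with a trended prior variance and Benjamini-Hochberg adjustment at 0.01. Comparisons between muscles used 1 fit of all arrays with the mouse as a random block (statmod 1.5.0). The scripts were tested on simulated data. Replicates were separate mice, and their number limits the precision. All members were named, together with up to 3 called genes per complement list and muscle and the 3 genes most correlated with each member. Marker lists were those of macrophages, neutrophils, fibroblasts, adipocytes, endothelium, lymphocytes, hepatocytes, fast and slow fibres and heart. The members and lists were chosen with earlier results of these data known. Alternatives changed the normalization, the variance prior, the filter on dim genes, the probe set rule, the arrays in the fit, a covariate and each replicate.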

Additional observations from a re-analysis of the deposited data

Results flagged for a closer look

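Of 56 groups of 5 or 6 arrays examined, 2 held an array far from the others, and chance flags about 1 group in 20. C1qa in SOL of T+WBV replicate 4 measured 5.86, below the other 4 muscles of its group at 6.66 to 6.96. Serping1 in SOL of T+WBV replicate 1 measured 10.91, above the other 4 at 10.24 to 10.41.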

How the results depend on the processing

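Of the single-gene values recomputed under alternatives, 906 kept direction and side of the threshold, 46 lost the call, 22 gained one and 19 changed sign, none of the last called. In EDL the members called in T against C numbered 2 to 5 with 1 mouse left out (5 without T replicate 4), and 5 when averaged over both tumour comparisons, against 3; SOL then had 2, against 0. Among genes above the median level, called complement list genes numbered 8 in EDL, against 14, and 2 in SOL, against 4. This filter left dimmer genes out of the fit, C5ar1 and Cfb in EDL among them, so that they could not be called. For T+WBV against C+WBV in EDL (2 called), the fit of all 58 arrays gave 1, which was C1qb, with C5ar1 and Cfb lost. The fit of only these groups gave 1, C5ar1, and leaving out 1 mouse 0 to 5. Genes above the median level gave 0, with C5ar1 and Cfb not among them. In heart (4 called), the fit of only these groups gave 2, and in SOL (0 called) genes above the median level gave 1. For T+WBV against C in EDL (5 called), genes above the median level gave 3, again with C5ar1 and Cfb not among them, and leaving out 1 mouse 3 to 6. In heart (4 called) the fit of only these groups gave 0 and leaving out 1 mouse 2 to 5, and in SOL (0 called) the fit of all arrays gave 1. For the fits without a mouse, the share of all genes called is not given here. Apart from the genes left out by the filter, the causes of these changes were not tested.

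With the replicate block, T+WBV against C+WBV in EDL gave 0 called members, against 2 (C5ar1 and Cfb, adjusted p = 0.019 and 0.0199 with limma), and no other count of members in a group comparison changed. Same-numbered arrays of compared groups had correlated deviations of -0.0798 to 0.144, so the numbers were not taken as pairs.

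C3ar1 in SOL changed sign, to -0.0011 averaged over both tumour comparisons, and ran from -0.073 to 0.116 in T against C with 1 mouse left out. In T+WBV against C+WBV it was 0.0045 after a second quantile normalization and -0.0916 to 0.111 with 1 mouse left out, and in EDL -0.116 to 0.021. Between heart and SOL of C mice, leaving out 1 mouse gave Cfb -0.20 to 0.38 and Serping1 -0.0697 to 0.11. With 3 hearts per group and 5 or 6 skeletal muscles, small differences could not be resolved.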
